A study of Mus musculus with 8 samples.

Results

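The sperm-egg fusion genes described here are the 9 genes Izumo1, Izumo2, Izumo3, Izumo4, Spaca6, Tmem95, Tmem81, Dcst1 and Dcst2, chosen by name, and all 9 were among the 17127 genes of the table and passed the expression minimum. Their transcripts were measured by RNA-seq of whole testes from wild-type mice (4 libraries) and Iqch mutant mice (3 libraries), to ask what loss of the IQ-motif protein IQCH does to testis gene expression. The mice were males 4 months old, each library came from 1 mouse, and the mutants were Iqch-/-, from lines with small deletions that CRISPR-Cas9 made in exon 19. The labels do not say from which of the deletion lines the libraries came. A further mutant, number 3, has no values in the table and is not analysed here. The authors left out 1 mutant as an outlier after normalization, and their text does not give its number.

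Mammalian fertilization ends with the binding and merging of the sperm and egg membranes. On the sperm, the immunoglobulin-type protein IZUMO1 binds the egg receptor JUNO, and several other sperm membrane proteins (SPACA6, TMEM95, TMEM81, DCST1 and DCST2) act with it or in parallel. The genes are transcribed mainly in spermatids, the post-meiotic germ cells, well before the sperm leaves the testis, so that the level of their mRNA in whole testis depends both on the number of spermatids and on the mRNA of each cell. In these bulk libraries, fewer cells of a type and less RNA per cell cannot be told apart.

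Values are CPM, in which a library's reads are scaled to 1000000 in total. Each library's values were whole multiples of 1 step of 0.0266 to 0.0312 CPM. That a step is 1 read could not be checked from the values, because the filtered table holds too few low ones. If it is, wild-type libraries held 32859673 to 37551057 reads and mutant libraries 32064384 to 34806129. The approximate number of assigned reads per sample that the paper gives lies within both ranges. The least abundant member, Tmem95, then had 446 to 764 reads in a library. The targeted gene, Iqch, stood at 193 to 217 CPM in the wild types and 64.8 to 69.2 CPM in the mutants, a log2 fold change of -1.63 ± 0.05 (SE; adjusted p = 1.92e-10), in the direction of the labels in all 7 libraries. Markers of other testis cells moved strongly. The 6 Leydig cell markers together made up 997 to 1202 CPM in wild types and 4214 to 4393 CPM in mutants. Most of that rise was Insl3, Leydig cell insulin-like 3, with means of 438 and 2941 CPM (log2 fold change 2.75), and 1 of the 6 was not called. The sum of 7 Sertoli cell markers went from 987 to 1072 CPM to 2079 to 2210 CPM. Most of that rise was Clu, with means of 851 and 1816 CPM. The 6 macrophage markers together made up 51.9 to 63.0 CPM in wild types and 201 to 233 CPM in mutants. The part of these shifts in the results below was not tested.

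The stretches of DNA before 3 of the transcription starts are shown. They hold the letters of a cAMP response element, the bases between the starts of neighbouring genes and a microRNA gene that lies in the counted region. Izumo1 (ENSMUSG00000064158) lies on the plus strand of chromosome 7 from 45271208 to 45278247 in GRCm39, and the 120 bases before its RefSeq start, chr7:45271115-45271234, read on the plus strand as follows, with a cAMP response element (CRE) in capitals. The last bases lie in the first exon of the longer GENCODE model.
Izumo1: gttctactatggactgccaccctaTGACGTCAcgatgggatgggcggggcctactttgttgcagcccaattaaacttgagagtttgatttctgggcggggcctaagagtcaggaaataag

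The CRE is the binding sequence of the CREB and CREM transcription factors, and CREM is a well-known regulator of spermatid genes. The full 8 letters TGACGTCA, a palindrome, stood 89 to 96 bases before the Izumo1 start. Searched on both strands in the 250 bases before each start of the RefSeq table (built on GRCm38.p6), they were found in 508 of 32851 windows (1.55%), and Izumo1 was the only one of the 8 members with a window to hold them. Izumo4 has no window in the table. The CRE half-site TGACG, which the full element contains, was found in the windows of Izumo1 and Tmem95 and in 17.8% of all windows. The half-site of the X-box, GTTGCC, a binding sequence of RFX factors, was found in that of Spaca6 and in 10.4% of all windows. The TATA box letters TATAAA were found in none of the 8 member windows and in 12.4% of all windows. These matches are descriptions of letters only.

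Dcst1 (ENSMUSG00000042672) and Dcst2 (ENSMUSG00000109293) are head-to-head neighbours on chromosome 3. Dcst1 lies on the minus strand from 89257526 to 89272560 and Dcst2 on the plus strand from 89269282 to 89284956. Their RefSeq starts enclose 65 bases, chr3:89272561-89272625, given here on the plus strand, with none of the searched letters in them.
Dcst1-Dcst2: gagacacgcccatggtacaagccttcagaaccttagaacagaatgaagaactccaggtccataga

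Spaca6 (ENSMUSG00000080316) lies on the plus strand of chromosome 17 from 18047420 to 18063271. The 3 microRNA genes Mir99b, Mirlet7e and Mir125a lie within it on the same strand. A further microRNA gene, Gm55583, overlaps it by 117 bp on the opposite strand, with 0 bp of shared exons. The 168 bases before its RefSeq start, chr17:18051069-18051236, hold the whole mature sequence of miR-125a-5p, in capitals.
Spaca6: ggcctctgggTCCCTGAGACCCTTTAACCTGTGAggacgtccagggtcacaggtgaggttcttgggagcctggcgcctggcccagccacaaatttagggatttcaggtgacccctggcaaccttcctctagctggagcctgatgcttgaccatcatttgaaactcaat
In the annotation, 47 bp of the exons of Spaca6 were shared with Mir125a. The longest coding transcript of Spaca6 is 1147 bp, while the union of all its exons is 7067 bp, so reads of other transcripts through the locus can be counted under Spaca6.

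Of the 9 fusion genes, 3 (33.3%), Izumo1, Izumo2 and Izumo3, were called lower in Iqch mutant testes in the deposited CPM, and 0 were called higher. All 9 had positive values once libraries were divided by spermatid markers. That sign depends on the markers chosen, 7 of round and 10 of elongating spermatids, with median log2 fold changes of -0.26 and -0.63. A gene that fell less than the geometric mean of this mix turns positive, and division by the round markers alone was not run. Genes were called with limma at an adjusted p (Benjamini-Hochberg, over 17126 tested genes) below 0.01. Over all tested genes, 14.2% were called lower and 36.3% higher. The mutant mean was below the wild-type mean for 8 of the 9 members, the exception being Spaca6. All mutant values lay below all wild-type values for Izumo1, Izumo2 and Tmem95, against 19.5% of all tested genes, and for 0 members did they lie above, against 42.8%. The median log2 fold change of the 9 members was -0.13 against 0.12 over every gene tested. At an unadjusted p below 0.05, 1 member (Spaca6) was on the higher side, and Tmem95 joined the lower side.

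**Figure D1:**
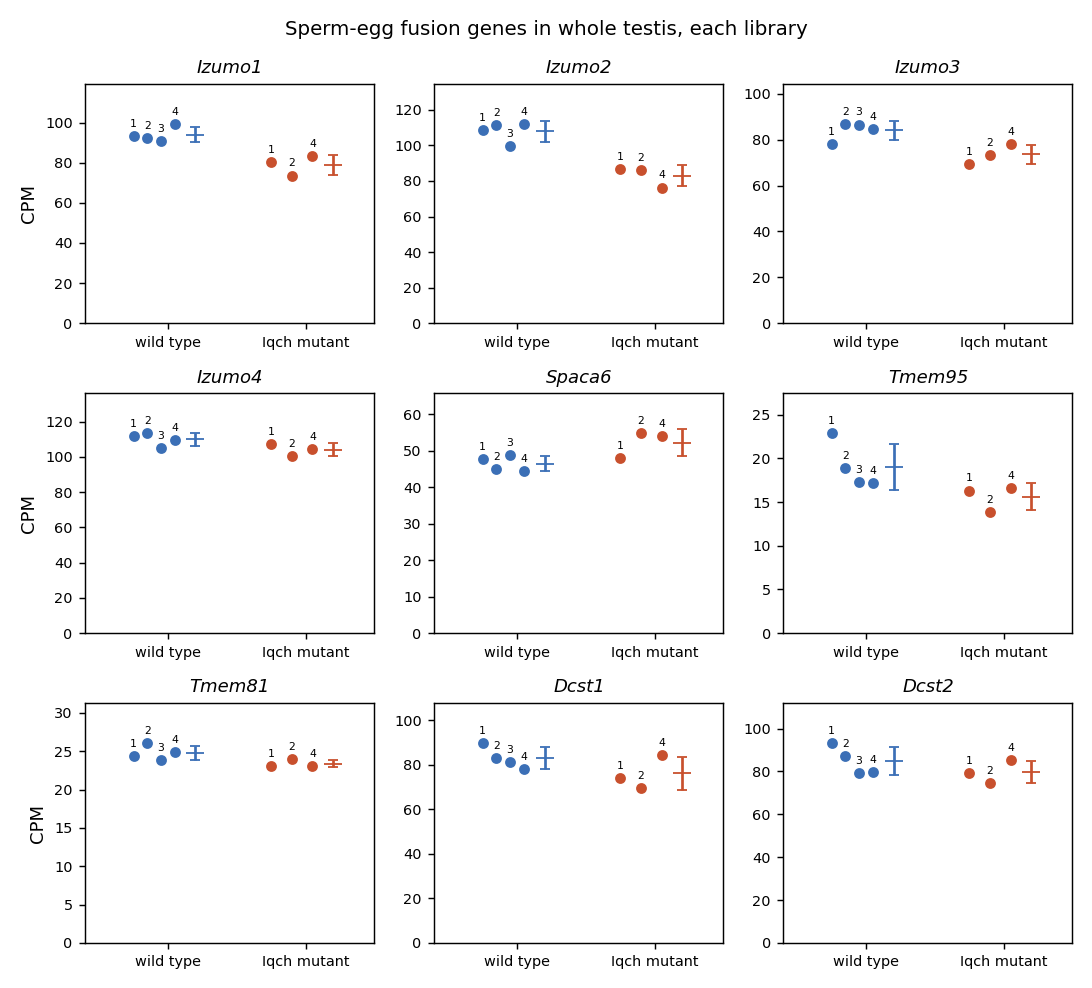
Level of the 9 fusion genes (CPM, y axis from 0) in each wild-type (blue, n = 4) and Iqch mutant (orange, n = 3) library, numbered by mouse, with the mean and SD beside the points. The mutant values of Izumo1, Izumo2 and Tmem95 lie below every wild-type value, and for the other 6 genes the groups overlap. These are deposited CPM, and the sign of 8 genes turned when libraries were divided by a mix of 7 round and 10 elongating spermatid markers.

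Izumo1, the sperm ligand of JUNO, was at 93.5, 92.1, 90.8 and 99.5 CPM in wild-type mice 1 to 4 and at 80.2, 73.6 and 83.2 CPM in mutants 1, 2 and 4. The highest mutant stood below the lowest wild type. Its mean fell by 15.9%, with 94.0 ± 3.8 (SD, n = 4) CPM in wild types against 79.0 ± 4.9 (SD, n = 3) in mutants and a log2 fold change of -0.25 ± 0.05 (SE; adjusted p = 0.00128). The annotation places Rasip1, a gene of the blood vessel lining, on the same strand with 1289 bp of shared exons, 42.7% of the exon union of Izumo1. Rasip1 itself had 5.05 ± 0.45 CPM in wild types against 5.61 ± 0.79 CPM in mutants and was not called (adjusted p = 0.336). How reads of the shared exons were assigned is not stated in the sources used here.

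Izumo2 (ENSMUSG00000066500; chromosome 7, 44358097 to 44369378, plus strand), a relative of Izumo1 with the same Izumo domain, had the largest change of the 9. It was at 109, 112, 99.5 and 112 CPM in wild-type mice 1 to 4 and at 86.8, 86.1 and 76.3 CPM in mutants 1, 2 and 4. The groups did not overlap, and wild type 3 was the lowest of its group. The mean fell by 23.1%, with 108 ± 5.9 CPM against 83.1 ± 5.9 CPM and a log2 fold change of -0.38 ± 0.06 (adjusted p = 1.14e-04). Izumo1 and Izumo2 were called lower with each of the 7 libraries left out in turn.

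Izumo3 (ENSMUSG00000028533; chromosome 4, 92032389 to 92035471, minus strand), which is needed to form a normal acrosome, was at 77.9, 87.0, 86.6 and 84.5 CPM in wild-type mice 1 to 4. It was at 69.5, 73.2 and 78.0 CPM in mutants 1, 2 and 4. Mutant 4 lay just above wild type 1 (77.99 against 77.91 CPM). The mean fell by 12.4%, a log2 fold change of -0.19 ± 0.06 with an adjusted p of 0.00918, just inside the threshold. The call was lost without any 1 of mutant 1 (adjusted p = 0.0485), mutant 2 (0.0281), wild type 2 (0.0299), wild type 3 (0.0228) or wild type 4 (0.0163).

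Izumo4 (ENSMUSG00000055862; chromosome 10, 80538018 to 80541232, plus strand) differs from the others of the family in lacking a membrane anchor. It was at 112, 113, 105 and 109.6 CPM in wild-type mice 1 to 4 and at 107, 100.4 and 104 CPM in mutants 1, 2 and 4. The groups overlapped, and the log2 fold change was -0.08, with a 95% interval from -0.18 to 0.02 (adjusted p = 0.138).

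Spaca6, a sperm membrane protein with an immunoglobulin-like domain that is required for fusion, was the only member with a higher mutant mean. It was at 47.8, 45.0, 48.9 and 44.4 CPM in wild-type mice 1 to 4 and at 48.0, 54.8 and 54.1 CPM in mutants 1, 2 and 4. Mutants 2 and 4 were above every wild type, and mutant 1 lay within the wild-type range. Wild types averaged 46.5 ± 2.2 CPM and mutants 52.3 ± 3.7 CPM, a log2 fold change of 0.17 ± 0.06 that did not pass the threshold (adjusted p = 0.0297). Without mutant 1 the log2 fold change was 0.23 and passed (adjusted p = 0.00766).

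Tmem95 (ENSMUSG00000094845; chromosome 11, 69765860 to 69768904, minus strand), a small sperm membrane protein required for fusion, was at 22.9, 18.9, 17.3 and 17.2 CPM in wild-type mice 1 to 4. It was at 16.3, 13.9 and 16.6 CPM in mutants 1, 2 and 4. Every mutant was below every wild type, and wild type 1 was the highest of its group. The log2 fold change of -0.28 ± 0.10 did not pass the threshold (adjusted p = 0.0331).

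Tmem81 (ENSMUSG00000048174; chromosome 1, 132433968 to 132436642, plus strand) encodes a membrane protein that forms a complex with IZUMO1 and SPACA6. It was at 24.4, 26.0, 23.9 and 24.9 CPM in wild-type mice 1 to 4 and at 23.1, 23.9 and 23.0 CPM in mutants 1, 2 and 4. Mutant 2 lay just above wild type 3, at 23.92 against 23.89 CPM. The log2 fold change was -0.09, with a 95% interval from -0.22 to 0.05 (adjusted p = 0.232).

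Dcst1 and Dcst2 encode paired membrane proteins of the DC-STAMP type that fusion needs together. Dcst1 was at 89.6, 82.8, 81.1 and 78.0 CPM in wild-type mice 1 to 4 and at 74.0, 69.6 and 84.4 CPM in mutants 1, 2 and 4. Dcst2 was at 93.2, 87.0, 79.4 and 79.8 CPM in wild-type mice 1 to 4 and at 79.5, 74.6 and 85.1 CPM in mutants 1, 2 and 4. Both genes were highest in wild type 1 and lowest in mutant 2, and mutant 4 was within the wild-type range for both. The log2 fold changes were -0.13 (95% interval -0.27 to 0.02; adjusted p = 0.119) for Dcst1 and -0.09 (-0.23 to 0.05; adjusted p = 0.253) for Dcst2. Single libraries moved these values. Dcst1 was at -0.07 without mutant 2 and at -0.20 without mutant 4, and Dcst2 was at -0.04 without mutant 2 or wild type 1 and at -0.14 without mutant 4, with 0 of these passing the threshold (adjusted p from 0.0175 to 0.641).

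The ratio of Dcst1 to Dcst2 within a library does not depend on the library's total. It was 0.978 ± 0.031 (SD, n = 4) in wild type and 0.952 ± 0.034 (SD, n = 3) in the mutants. The difference of -0.04 in mean log2 ratio was matched or exceeded in 12 of the 35 ways to choose 3 of the 7 libraries (two-sided exact permutation test, p = 0.343). The smallest p this design allows is 0.0286, so the test could pass at 0.05 but not at the 0.01 used across genes, and it does not show that the balance of the pair was alike. The gene bodies overlap by 3279 bp on opposite strands with 0 bp of shared exons in the annotation. At its other end Dcst2 shares 15 bp of exon with Zbtb7b, a transcription factor gene on the opposite strand, which averaged 7.70 ± 0.53 CPM in wild types and 16.9 ± 0.31 CPM in mutants. Dcst1 shares 313 bp of exon, 5.97% of its exon union, with Gm66683. That long noncoding RNA gene lies on the opposite strand and was not in the table.

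Ratios to Izumo1 within each library were free of the scaling as well, and are given as a description. The Spaca6:Izumo1 ratio was 0.446 to 0.538 in wild type and 0.599 to 0.744 in the mutants, and the Izumo4:Izumo1 ratio was 1.101 to 1.23 in wild type and 1.25 to 1.36 in the mutants. These were the 2 of 8 members whose ratio to Izumo1 did not overlap between genotypes, both higher in the mutants. Over all other tested genes, the ratio to Izumo1 was higher without overlap for 62.9% and lower without overlap for 4.43%. The Izumo2:Izumo1 ratio overlapped, with 1.096 to 1.21 in wild type and 0.917 to 1.17 in the mutants, and mutant 4 alone had a ratio below 1.

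The direction of the members' change depended on the scaling between libraries. Dividing by median-of-ratios size factors moved the median over all genes from 0.12 to -0.01 (log2), and 7 of the 9 members were then called lower and 0 higher, with 25.1% of all genes called lower and 27.0% higher. Izumo4 (-0.22), Tmem95 (-0.41), Tmem81 (-0.22) and Dcst1 (-0.26) joined Izumo1, Izumo2 and Izumo3, while Dcst2 just missed the threshold (-0.22; adjusted p = 0.0101) and Spaca6 was at 0.03. Dividing by the mean of the spermatid markers instead moved the median of all genes to 0.59, and all 9 members then had positive values. In that scaling 7 members were called higher and 0 lower, with 79.9% of all genes called higher and 1.62% lower, and Izumo2 (0.10; adjusted p = 0.175) and Tmem95 (0.20; adjusted p = 0.0895) were not called.

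A scaling shifts the members and the median gene together, so the distance of a member from the median of all tested genes is 1 observation and not 1 for each scaling. With the deposited CPM Izumo2 stood at -0.50, Tmem95 at -0.40, Izumo1 at -0.37, Izumo3 at -0.31, Dcst1 at -0.25, Dcst2 and Tmem81 at -0.21, Izumo4 at -0.20 and Spaca6 at 0.05 from that median (log2).

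**Figure D2:**
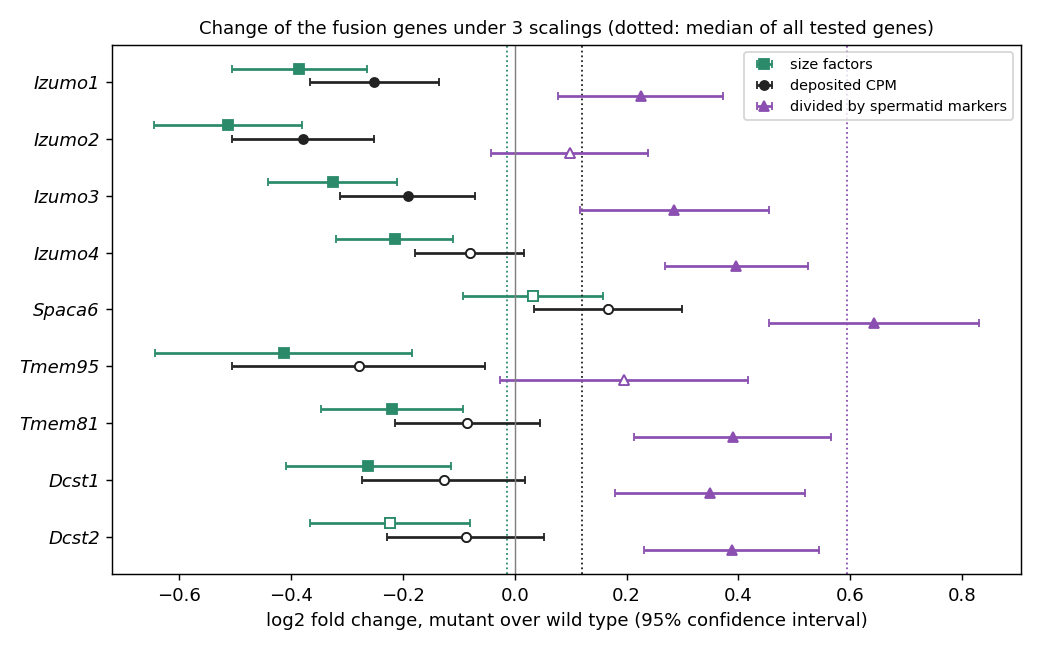
Log2 fold change of each fusion gene, mutant over wild type, with its 95% confidence interval, from the deposited CPM (circles), after size factors (squares) and after division by spermatid markers (triangles). Filled symbols were called at an adjusted p below 0.01, and dotted lines mark the median of all tested genes in each scaling, which moved from -0.01 to 0.59 as the members moved.

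The medians of the markers used for the last scaling were lower than that of the fusion genes, a difference that was not tested. Of 7 round spermatid markers, all from the acrosome, kinase and flagellar channel genes of early spermatids, 6 were called lower, with a median log2 fold change of -0.26. Tssk3, a testis kinase, was at -0.47, Actl7a, an actin-like acrosomal protein, at -0.36 and Tssk2 at -0.34. All 10 elongating spermatid markers were called lower, with a median of -0.63, among them the protamine-cluster gene Prm3 (-0.76), the transition protein gene Tnp1 (-0.68) and Smcp, a mitochondrial capsule protein (-0.68). With each library divided by these same markers, the median of the round list was at 0.21 and that of the elongating list at -0.15. The median of the 8 spermatocyte markers was -0.05 in the deposited CPM, with 1 called lower and 1 higher, and -0.18 after size factors and 0.43 after division by spermatid markers. The largest values in that list were those of Aurka (-0.29), Meiob (-0.28, not called, though it passed without wild type 4, adjusted p = 0.00931) and Spo11 (0.27). The call of Spo11 was lost without wild type 1 (adjusted p = 0.0109), mutant 2 (0.0212) or mutant 4 (0.0108), and after size factors (0.0768).

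Of 8 spermatogonial markers 4 were called higher and 0 lower, with Kit at 1.505, Zbtb16 at 0.80 and Sall4 at 0.35 (not called). The median of the list was 0.31, and 0.17 after size factors, when only 1 of 8, Kit, was called. With each library left out in turn, only Kit of the 4 kept its call throughout. Which cells carried the rise of Kit was not tested. Zbtb16 overlapped between the genotypes, with 6.46 to 14.9 CPM in mutants, and its call was lost without mutant 4 (0.53; adjusted p = 0.0252), mutant 2 (0.0218), wild type 1 (0.0117), wild type 2 (0.0161) or wild type 4 (0.0101), and after size factors (0.0122). The Sertoli list had 7 of 7 called higher (5 after size factors), with Clu at 1.09, Cldn11 at 0.94 and Gata4 at 0.92, and the Leydig list 5 of 6, with Hsd3b1 at 3.21, Insl3 at 2.75 and Cyp11a1 at 1.42. The macrophage list had 6 of 6, with Lyz2 at 2.34, C1qa at 1.94 and Csf1r at 1.80. Of 4 peritubular and endothelial markers 1 was called, with Cdh5 at 1.05, and Pecam1 at 0.63, Acta2 at 0.28 and Myh11 at -0.16 not called. No marker of these lists was at 0 in any library. The part of these markers' shifts in the members' values was not tested.

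**Figure D3:**
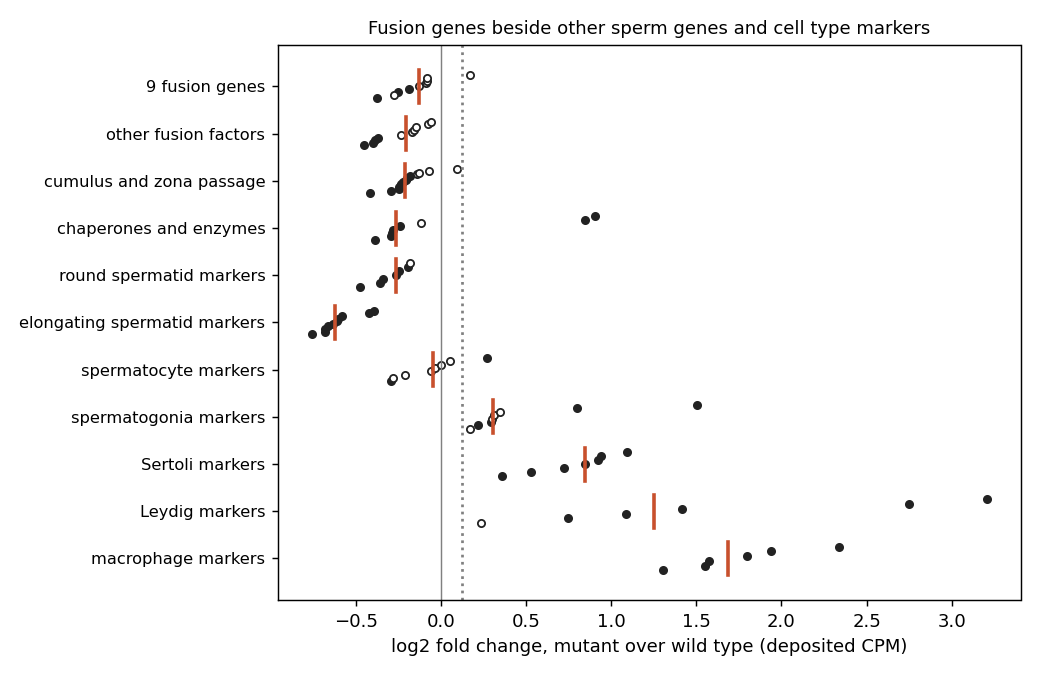
Log2 fold change of each gene of the fusion group, of 3 other lists of fertilization genes and of markers of testis cell types, from the deposited CPM, with filled points called at an adjusted p below 0.01. Orange bars mark the median of a list and the dotted line that of all tested genes, 0.12. The median of the fusion genes, -0.13, lies between those of the spermatocyte and round spermatid markers, and it turned positive, to 0.35, when libraries were divided by spermatid markers.

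Of 10 other sperm factors linked to fusion or egg activation, 4 were called lower and 0 higher in the deposited CPM, with a median of -0.20. After size factors 9 were called lower, with 25.1% of all genes. After division by spermatid markers the median was 0.27, and 5 were called higher and 0 lower, with 79.9% of all genes called higher. Plcz1, the sperm phospholipase that starts calcium waves in the egg, was at 257, 295, 275 and 272 CPM in wild-type mice 1 to 4 and at 200.2, 197 and 204 CPM in mutants 1, 2 and 4, a log2 fold change of -0.46 ± 0.05 (adjusted p = 3.65e-06). Frey1, an endoplasmic reticulum protein that holds IZUMO1 during its assembly, was at 62.5, 56.1, 52.3 and 59.4 CPM in wild type and at 45.0, 40.5 and 45.2 CPM in the mutants, a log2 fold change of -0.40 ± 0.07 (adjusted p = 2.06e-04). The groups of both genes did not overlap.

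Crisp2, a cysteine-rich secretory protein of the acrosome and tail, fell, with 1777 ± 73 CPM in wild types against 1357 ± 15 CPM in mutants and a log2 fold change of -0.39 ± 0.04 (adjusted p = 2.97e-06). Llcfc1, also called Sof1, is required for fusion and fell too, with 263 ± 13 CPM against 203 ± 13 CPM and a log2 fold change of -0.37 ± 0.05 (adjusted p = 4.35e-05). Both genes, as Plcz1 and Frey1, were called lower with each library left out, while division by spermatid markers put all 4 between 0.02 and 0.10, none of them called.

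The other 6 did not pass. Spaca1, an inner acrosomal membrane protein, was at -0.15 (adjusted p = 0.0107) and Spesp1, an equatorial segment protein, at -0.17 (adjusted p = 0.0126), and both passed without wild type 4 (adjusted p = 0.00563 and 8.94e-04). Cd46, a complement regulator of the acrosomal membrane, was at -0.24 (adjusted p = 0.0435) and passed without wild type 1 (adjusted p = 0.00546). Spaca3, a lysozyme-like acrosomal protein, was at -0.16 (adjusted p = 0.0424) and passed without wild type 3 (adjusted p = 0.00564). Eqtn, a further acrosomal membrane protein, was at -0.08 and the fusion factor Fimp (4930451I11Rik in the table) at -0.06, with a sign that turned (0.04) without mutant 2.

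Of 14 genes for the passage of sperm through the cumulus and the zona pellucida, 10 were called lower and 0 higher in the deposited CPM, with a median of -0.21. After size factors 12 were called lower and 0 higher, with 25.1% of all genes called lower and 27.0% higher. After division by spermatid markers 12 were called higher and 0 lower, with 79.9% of all genes called higher and 1.62% lower. Adam1a, a metalloprotease-family protein of the spermatid reticulum, was at -0.42, the testis protease-like gene Prss37 at -0.29, Adam3, a zona-binding protein, at -0.25, and Ly6k, a GPI-anchored partner of the ADAM proteins, at -0.24. The call of Prss37 was lost without wild type 2, mutant 1 or mutant 4 (adjusted p = 0.0175, 0.018 and 0.0371). Zp3r (-0.14) and Hyal5 (-0.13) were the largest values that did not pass.

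Of 8 genes listed as chaperones, enzymes and other factors linked to sperm surface proteins, 5 were called lower and 2 higher. The calreticulin of spermatids, Calr3, was at -0.39 and the disulphide isomerase Pdilt at -0.29, while the chaperone Clgn did not pass at -0.12 (adjusted p = 0.0303), though it did without wild type 4 (adjusted p = 0.00559). The genes called higher were Rnase10 (0.90), best known from the epididymis, and the widely expressed tyrosine sulphotransferase Tpst2 (0.85). They were the least abundant of the list, at 1.99 ± 0.18 and 7.11 ± 0.77 CPM in wild type and 3.85 ± 0.79 and 12.9 ± 1.6 CPM in the mutants. Rnase10 lay at 1.765 to 2.184 CPM in wild type, below the 2.2 CPM minimum. It entered the test only through the mutants (2.979 to 4.511 CPM), so the filter favoured a call in that direction. Rnase10 and Tpst2 stayed positive in all 3 scalings. After size factors 6 of the 8 were called lower and 2 higher, with 25.1% and 27.0% of all genes. After division by spermatid markers 6 were called higher, with 79.9% of all genes.

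Of the proteins that act on the egg side, the JUNO gene Izumo1r was not in the table. The tetraspanin genes Cd81 and Cd9, which many somatic cells also express, were called higher. Cd81 averaged 52.0 ± 3.0 CPM in wild types and 135.0 ± 2.6 CPM in mutants (log2 fold change 1.38; adjusted p = 1.21e-09). Cd9 was at 4.38 ± 0.49 and 6.34 ± 1.18 CPM (0.51; adjusted p = 0.00637), and its call was lost when mutant 1 (0.0395), mutant 2 (0.0104), wild type 2 (0.0196) or wild type 3 (0.0179) was left out, and after size factors (0.0329).

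Levels of the members can be set beside each other only per length. Per kilobase of the union of all exons, Izumo2 was the highest in wild type at 119.6 ± 6.5 CPM per kilobase, followed by Izumo3 at 54.8 ± 2.7, Izumo4 at 38.95 ± 1.27, Dcst2 at 35.3 ± 2.7, Izumo1 at 31.1 ± 1.3, Dcst1 at 15.8 ± 0.94, Tmem81 at 10.9 ± 0.41, Tmem95 at 8.50 ± 1.18 and Spaca6 at 6.58 ± 0.31 (SD, n = 4). Of the neighbours in this order, Izumo4 and Dcst2 overlapped between wild-type mice. In the mutants the order was the same except that Spaca6 (7.40 ± 0.52) stood above Tmem95 (6.97 ± 0.67), with overlapping values.

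The order depended on the length chosen. Per kilobase of the longest coding transcript, Izumo1 (61.8 ± 2.5), Izumo4 (61.2 ± 2.0) and Izumo3 (58.5 ± 2.9) were indistinguishable by their ranges in wild type, Spaca6 rose to 40.6 ± 1.9 CPM per kilobase, and Dcst1 (35.4 ± 2.1) and Dcst2 (35.5 ± 2.8) were level. Izumo2 was highest and Tmem95 lowest in both genotypes by this length.

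**Figure D4:**
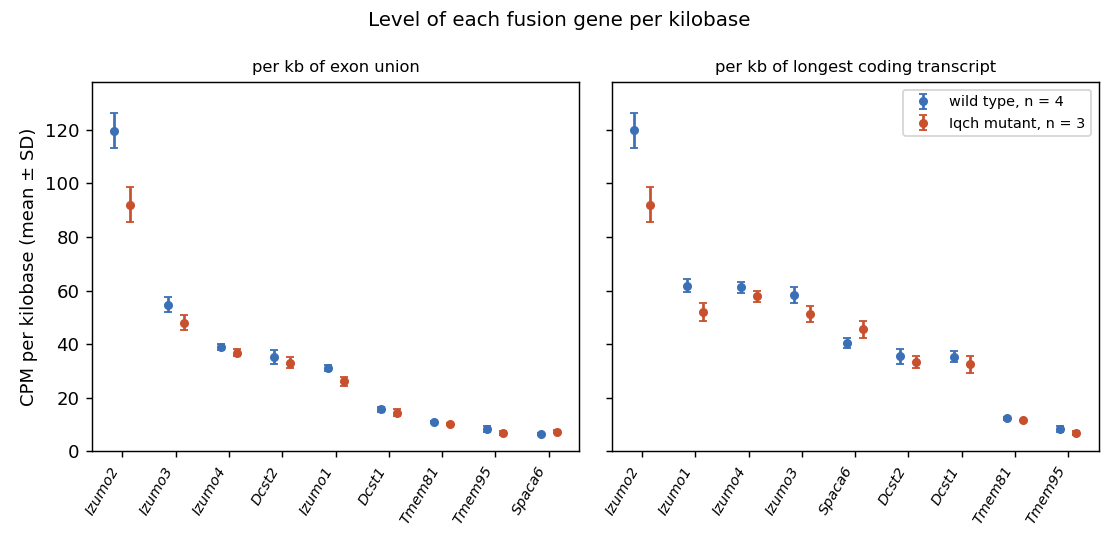
CPM per kilobase (mean ± SD) of each fusion gene in wild type (blue, n = 4) and Iqch mutants (orange, n = 3), per kilobase of the exon union (left) and of the longest coding transcript (right), ordered by the wild-type mean. Izumo2 leads in both panels, at 119.6 CPM per kilobase in wild type and 92 in the mutants by the exon union, and Spaca6 moves from the last to the fifth place.

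The genes whose pattern over the 7 libraries was nearest to that of Izumo1, by the root-mean-square distance of log2 values centred on each gene's mean, were Prss21 (distance 0.03), a testis serine protease, Gm10069, Vwf, Tshr and 2610318M16Rik (0.03 to 0.04). Of these, Prss21 (log2 fold change -0.27; adjusted p = 5.21e-04) and 2610318M16Rik (-0.20; adjusted p = 0.00775) were called lower, the second of them losing its call without any 1 of 6 libraries (all but wild type 3). Among the fusion genes the nearest to Izumo1 was Izumo3 (distance 0.09, place 1135 of 17125 genes), and the farthest was Spaca6 (0.24, place 8245).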

How the data were processed

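Testis RNA (TruSeq, paired-end HiSeq2500) was sequenced by the authors, who used Trimmomatic for trimming, Subread for mapping (GRCm39) and featureCounts for counting, and called genes with edgeR and DESeq2. The strand setting and annotation release are not given in the sources used here. The deposited values are the authors' CPM, which sum to 1000000 in each library. From these, limma 3.58.1 (R 4.3.3; lmFit, eBayes with trend) was run on log2(CPM + 0.1) over 17126 genes reaching 2.2 CPM in at least 2 samples of a genotype, with a Benjamini-Hochberg threshold of 0.01. Fold changes are on that scale and ± is the SE. A check on simulated data came first. It changed 200 genes, as many up as down, by folds larger than those of the members. The check therefore does not bear on small changes or on the scaling. The study's methods guided the minimum and threshold. Count tests were not used, since too few low values were left to check that the whole steps of the CPM are reads. Single values used an exact permutation test. Lengths and overlaps came from GENCODE M39 (17045 genes matched, 99.5%), sequences from RefSeq. Summaries and figures used Python 3.11.15, NumPy 2.4.6, pandas 2.3.3 and matplotlib 3.10.9. Size factors were medians of ratios, and the spermatid scaling divided by the geometric mean of 17 markers. Genes named were all members, Iqch, the other fusion factors, up to 4 called and 2 uncalled of each other list with the largest changes, up to 3 markers per list, genes overlapping a member and the 5 nearest to Izumo1. The members and lists were chosen with earlier results of these data known. Other alternatives were pseudocounts, minimums, a replicate block and each library left out.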

Additional observations from a re-analysis of the deposited data

How the results depend on the processing

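A pseudocount of 1 or 0.01, no minimum and a minimum of 5 CPM left each member's sign and call as reported. The scaling mattered most, since the median of all genes moved with it. Size factors gave 4294 genes lower, 7 members called (7 lower), 9 of the other fusion factors called and 1 of the egg-side genes. Division by spermatid markers gave 13959 genes called (277 lower, 13682 higher) and 7 members called (0 lower, 7 higher), and it reversed the log2 fold changes of Izumo1 (0.23), Izumo2 (0.10), Izumo3 (0.28), Izumo4 (0.40), Tmem95 (0.20), Tmem81 (0.39), Dcst1 (0.35) and Dcst2 (0.39). The cause was not tested.

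With a library left out in turn, 7237 to 8503 genes were called, of which 1934 to 2392 lower and 5303 to 6111 higher. Members called numbered 2 to 3, with 2 to 3 lower (Izumo3 lost without wild type 2, 3 or 4 or mutant 1 or 2) and 0 to 1 higher (Spaca6, called without mutant 1). Called egg-side genes numbered 1 to 2, Cd9 being lost. The Dcst1:Dcst2 difference was -0.07 to -0.02, with too few ways to choose libraries to pass.

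Whether the replicate numbers pair the mice is not stated in the sources used here. Deviations of same-numbered mice correlated at 0.03 (1), 0.01 (2) and -0.10 (4), which cannot show how the mice were matched. With the replicate block, in which wild type 3 drops out of the contrast, 7722 genes and 2 members were called, Izumo3 not passing (-0.18; adjusted p = 0.0177), and 1 egg-side gene. The planned edgeR and DESeq2 fits were not run, because the filtered table holds too few low values to check that the whole steps of its CPM are reads. With 3 mutants, changes of the size of Izumo4's (-0.08) cannot be separated from the spread between mice.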
